A study of Mus musculus with 21 samples.

Results

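The genes described here encode the machinery of oxidative phosphorylation. They are the nuclear protein-coding RefSeq genes whose symbols begin with Nduf, Uqcr, Cox4 to Cox8 or Atp5, plus Sdha, Sdhb, Sdhc and Sdhd, and they number 96 of the 21887 protein-coding genes in the gene table. The choice used symbols only, not measured values. The assay was chromatin immunoprecipitation with sequencing (ChIP-seq) of H3K36me3, a histone H3 methylation, in C2C12, an established mouse myoblast line that can be differentiated into muscle cells in culture. Wild-type (WT) cells had 2 libraries in each of 5 conditions, which were day 0, day 1 and day 5 in control medium, and day 1 and day 5 under methionine restriction. The labels give no medium for day 0. Each of 2 lines labelled as Setd2 knockout (KO) had 1 library per condition. Nothing in the labels says whether replicate libraries came from separate cultures, nor whether a KO line is a clone, so the spread between libraries may be technical. The names of peaks inside the lists call the KO libraries replicates of one KO group, and the labels, which name separate lines, were followed.

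Oxidative phosphorylation couples the transfer of electrons from NADH and succinate to oxygen with the synthesis of ATP in the inner mitochondrial membrane. Complex I (Nduf) takes electrons from NADH, complex II (Sdh) from succinate, complex III (Uqcr) passes them to cytochrome c, complex IV (Cox) reduces oxygen, and ATP synthase (Atp5) uses the proton gradient. Skeletal muscle depends on this machinery, and several subunits have isoforms used mainly in muscle and heart. H3K36me3 is laid by SETD2 over the bodies of transcribed genes, typically more toward their 3′ ends, with S-adenosylmethionine, which is made from methionine, as the methyl donor. The measure used throughout is cover, the percent of a gene body that lay inside called peaks of a library, and genes at 50% or more are termed marked. Cover reflects the extent of called peaks along a gene and not the height of the mark. In a bulk culture, a mark lost from some cells and a weaker mark in all cells cannot be told apart.

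Sorted by symbol alone, the members comprised 41 complex I subunit genes, 8 complex I assembly factor genes (Ndufaf), 4 of complex II, 8 of complex III, 18 of complex IV and 17 of ATP synthase. Ndufa4 and Ndufa4l2 thus count with complex I and Cox7a2l with complex IV, whatever complex their products belong to. Their median length was 7.23 kb, against 17.2 kb for all protein-coding genes. A mean cover of at least 5% over the 10 WT libraries, the minimum for testing, was reached by 84 members (87.5%) and by 44.2% of all genes. Of the other 12 members, 8 were listed at 0 in all 10 WT libraries and 4 had some cover but less than the minimum. The WT lists held 63423 to 87398 peaks over 110 to 184 Mb. Restricted libraries covered 110 to 134 Mb and WT libraries of control medium or day 0 covered 140 to 184 Mb, so the lists themselves were shorter under restriction. KO line 1 lists covered 0.307 to 74.1 Mb and KO line 2 lists 0.00821 to 7.13 Mb. The depth of sequencing is unknown, since peak lists carry none. Peak lists do not measure Setd2 itself. All 5 myoblast markers had some cover in WT cells at day 0, while the 7 markers of other cell types were listed at 0 in all 10 WT libraries.

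Most oxidative phosphorylation genes carried the mark in WT cells, over a wide range of cover. The mean of the library medians over the 96 members was 57.3% at day 0 (SD 0.614, n = 2). In control medium it was 51.2% at day 1 (SD 1.71, n = 2) and 54.9% at day 5 (SD 2.85, n = 2). Restricted cells had 30.4% at day 1 (SD 2.72, n = 2) and, at day 5, 41.5% (SD 3.60, n = 2). On average 56 members (58.3%) were marked at day 0, against 24.4% of all protein-coding genes, and 20 members were marked in all 10 WT libraries. No WT library marked another 30 members.

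The highest mean cover belonged to Ndufa10, an accessory subunit of complex I (chr1:92439486-92473825, GRCm38). Its libraries read 92.1% and 89.1% at day 0, 87.4% and 90.5% at day 1 control, 86.4% and 83.1% at day 1 restricted, 94.3% and 93.0% at day 5 control, and 91.6% and 92.1% at day 5 restricted. Nearly the whole gene was thus covered in every WT library. Atp5b, the catalytic beta subunit of ATP synthase (chr10:128083307-128090388), followed with 98.7% and 100% at day 0, 93.1% and 100% at day 1 control and 94.3% and 94.6% at day 5 control. Its restricted libraries were lower, at 74.0% in both of day 1 and at 73.1% and 89.7% at day 5. Ndufs1, which carries iron-sulfur clusters of complex I (chr1:63143592-63176822), ran from 78.7% to 89.8% over the 10 libraries without a gap between media.

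At the other end, Ndufaf2, an assembly factor and the longest member at 106 kb, had 0.468% to 2.29% in WT libraries, and its KO libraries had 0.0585% to 1.08%. Ndufa1, a small complex I subunit on the X chromosome, had 17.4% in 1 day 0 library and 10.46% in 1 restricted day 5 library, and was listed at 0 in the other 8. Cox4i2, the isoform of subunit 4 known from lung and low oxygen, had 3.96% in 1 restricted day 5 library and 0 in the rest. These genes stayed below the minimum for testing, together with Ndufa4l2. The shortest member, Ndufb4b at 0.471 kb, lay wholly within another coding gene and was listed at 0 in all libraries.

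Isoforms of one subunit often differed in cover. Cox4i1, the general isoform of subunit 4, had 50.01% to 81.6% in the 10 WT libraries, against at most 3.96% for Cox4i2. Cox6a1, the general isoform of subunit 6a, had 8.77% to 69.4%, whereas Cox6a2, its heart and muscle isoform, was listed at 0 in all 20 libraries, day 5 included. Cox6b1 had 35.7% to 81.3%, and Cox6b2, known from testis, was listed at 0. Cox7b and Cox8a had cover while Cox7b2 and Cox8c were listed at 0 throughout.

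The muscle isoforms were not uniformly bare. Cox7a1, the heart and muscle isoform of subunit 7a, reached 78.1% and Cox8b, the muscle isoform of subunit 8, reached 53.4%, each already before day 5. Cox7a2, the general isoform of subunit 7a, had 2.22% to 43.0%, and Cox7a2l, a factor for joining respiratory complexes, had 15.6% to 43.6%. Among the genes for the c subunit of ATP synthase, Atp5g2 had 58.8% to 87.4%, Atp5g3 had 20.6% to 47.9% and Atp5g1 was listed at 0 in every library. Ndufa4 had 19.1% to 81.5% against 0 to 19.2% for its paralog Ndufa4l2. The gene table names 19 pseudogenes by symbols of the same pattern, and 13 members, among them Atp5k with 4 and Atp5l with 3, have such copies. How the authors treated reads that map to several places is not given in the sources used here, so values at 0 or near it in such families are uncertain.

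**Figure D1:**
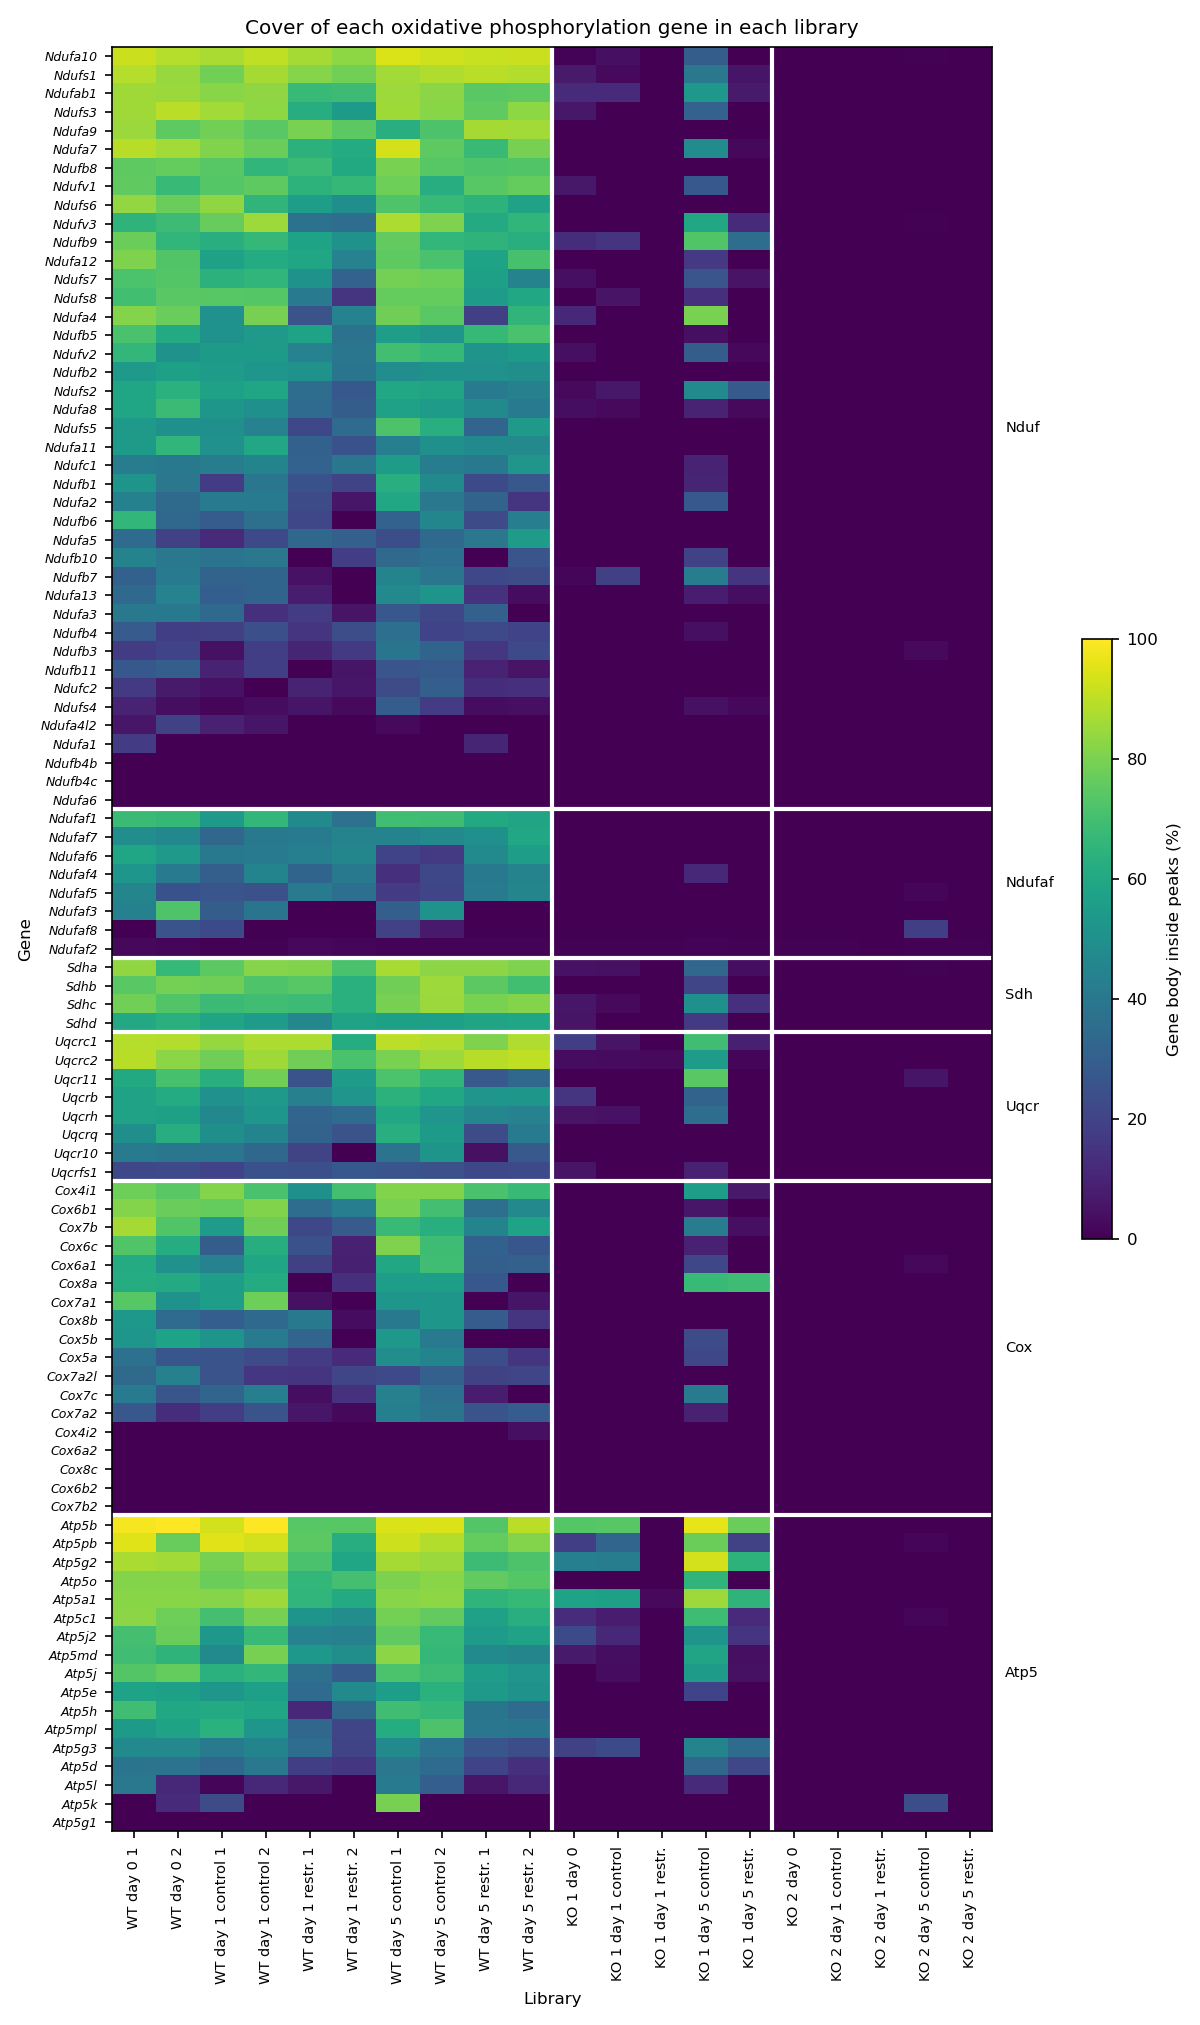
Heat map of cover, the percent of gene body inside peaks (colour, 0 to 100), for the 96 genes (rows, grouped by complex and ordered by WT mean) in the 20 libraries (columns, 10 WT, then 5 of KO line 1 and 5 of KO line 2). Cover in WT columns ranges from near 100 to 0, with 20 genes at 50% or more in all 10 of them and 30 in none, restricted WT columns are dimmer in the Cox and Atp5 blocks, the brightest KO column is that of line 1 at day 5 control, and KO line 2 is dark.

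Within the gene body the mark sat toward the 3′ end. Gene bodies were split at the midpoint for the 71 tested members whose strand is known. At day 0 the median cover was 29.2% on the 5′ side and 93.8% on the 3′ side, and the 3′ side was higher in 69 of them. At day 1 the medians were 20.4% and 86.1% in control and 3.15% and 52.9% in restricted medium, where all genes had 25.2% and 67.7%, then 11.3% and 48.7%. At day 5 they were 29.5% and 90.5% in control and 10.8% and 68.9% in restricted medium, where all genes had 33.5% and 73.7%, then 13.1% and 56.1%. The 3′ side was higher in 97.2% of members at day 0 and in 87.7% of the 7854 tested genes with a strand, whose medians were 35.3% and 76.8%. For members under 5 kb the 5′ median was already low at day 0, 5.09%, and the 3′ median went from 88.3% at day 0 to 21.7% at day 1 restricted, while over all genes of that length it went from 90.4% to 17.3%. For the 8 members over 20 kb with a known strand the medians were 56.8% and 84.3% at day 5 control and 57.2% and 89.8% at day 5 restricted, while over all such genes they were 33.4% and 64.7%, then 15.8% and 52.6%. The 3′ median was the higher one in all 5 WT conditions.

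**Figure D2:**
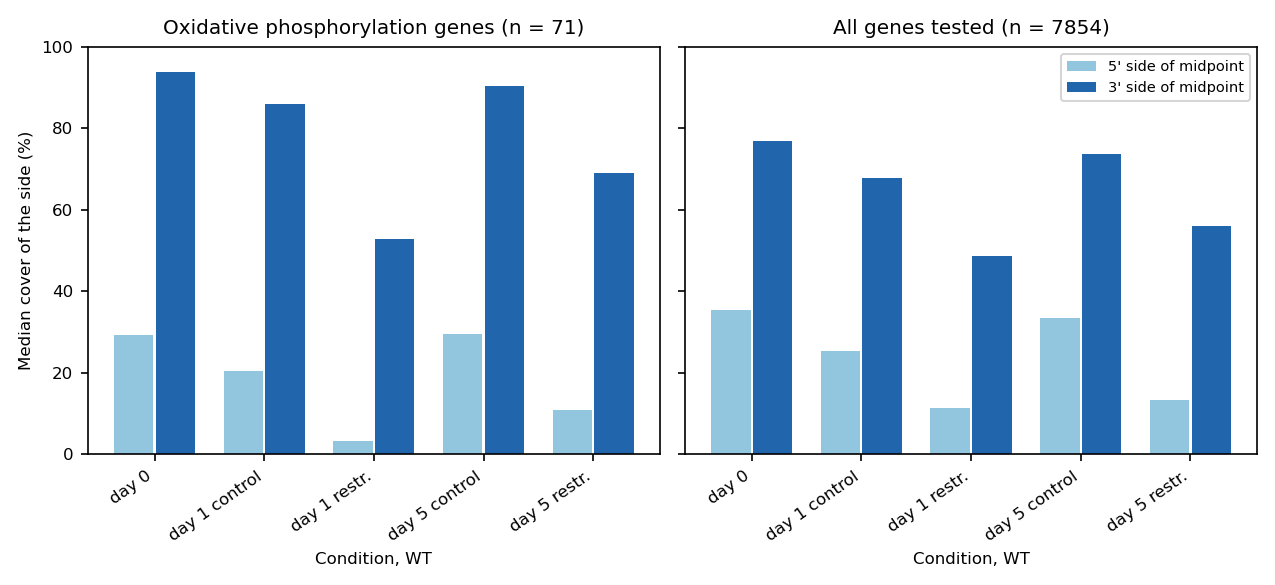
Median cover (percent, y axis from 0) of the 5′ side (light bars) and the 3′ side (dark bars) of the gene body midpoint in the 5 WT conditions (x axis), for 71 oxidative phosphorylation genes (left) and 7854 tested genes (right). Each gene value is the mean of 2 libraries, and the bars have no error; the 3′ side is higher in all conditions, and the 5′ median of the members is 3.15% at day 1 restricted.

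Few members passed the test between days in control medium. From day 0 to day 1 the library medians over the 96 members went from 57.8% and 56.9% to 49.9% and 52.4%, without overlap, and 68 of the 84 tested members had a negative difference (median −4.37 points, all genes −5.31 points). Between day 0 and day 1, limma called 0 of 84 tested members at a Benjamini-Hochberg (BH) adjusted p under 0.05, where 6.6% of all tested genes were called (0.961% higher and 5.64% lower); 11 members had an unadjusted p under 0.05, and plain eBayes moderation called 1. Between day 0 and day 5, 6 members rose (12% of all tested genes did) and 2 fell (15.6% of all, 27.5% in either direction). In percent, 7.14% of the tested members rose and 2.38% fell, both below the background. The median difference was 0.37 points over members and −1.20 points over all genes.

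The 6 that rose from day 0 to day 5 were 2 complex IV genes, Cox7a2 and Cox5a, and 4 complex I accessory subunit genes, Ndufv3, Ndufs4, Ndufb3 and Ndufc2. Cox7a2 had 27.0% and 13.3% at day 0 and 43.0% and 38.6% at day 5, a rise of 20.7 points (SE 4.95, limma adjusted p = 0.0160). Ndufs4, a 100.3 kb gene whose product is needed for stable complex I, had 9.54% and 3.904% at day 0 and 29.6% and 17.8% at day 5 (16.98 points, SE 3.71, limma adjusted p = 0.0105). Both genes stayed under 50%, and their day 0 and day 5 libraries did not overlap. The others rose by 14.5 to 17.3 points, with limma adjusted p from 0.0171 to 0.0469.

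Among these, Ndufv3 went from 65.0% and 68.7% to 87.7% and 80.6%, and Ndufb3 from 17.8% and 20.2% to 38.7% and 32.1%. Cox5a went from 37.2% and 26.7% to 49.3% and 44.9%, and Ndufc2 from 17.03% and 7.23% to 22.8% and 30.4%. The count of 8 called members was 5 without WT day 0 replicate 2, 3 without WT day 5 control replicate 1, and 2 when only the libraries compared were fitted, where none of the 6 rises was called. With peaks of a −log10 q of at least 3 the split was 1 higher and 7 lower (1.22% and 8.54%, all genes 7.21% and 17.4%). In lists cut to equal covered length it was 2 higher and 4 lower (2.53% and 5.06%, all genes 9.56% and 15.99%). The direction of the members' count thus depends on which peaks are kept. Under both settings the members' shares were below those of all genes, which had more lower than higher calls.

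The 2 that fell were complex I assembly factors. Ndufaf6, needed for the membrane part of early assembly intermediates (chr4:11048991-11076237), had 58.9% and 54.0% at day 0, 40.6% and 41.4% at day 1 control, and 19.9% and 16.8% at day 5 control, a fall from day 0 to day 5 of −38.1 points (SE 4.07, limma adjusted p = 0.000245). Ndufaf4, which works in the same assembly pathway (chr4:24898083-24905001), had 52.6% and 41.4%, then 30.2% and 45.0%, then 13.9% and 21.6%, a fall of −29.2 points (SE 6.34, limma adjusted p = 0.0102). Both genes were lowest at day 5 in control medium. Without WT day 5 control replicate 1 the Ndufaf4 difference was −25.4 points (limma adjusted p = 0.0751), and its call was also lost with the stricter peaks and in lists of equal covered length (adjusted p from 0.00575 to 0.217 over its alternatives). In lists cut to equal covered length the Ndufaf6 difference was −5.53 points (limma adjusted p = 0.614; over all its alternatives the adjusted p ran from 0.000157 to 0.614).

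Methionine restriction lowered cover of many members, with the largest shares called in ATP synthase and complex IV; once libraries were centred, as given further on, only complex IV had more genes lower than higher at both days. At day 1, 37 of the 84 tested members fell and 0 rose, where limma called 35.8% of all tested genes lower and 2.3% higher (38.1% in either direction). The share of members that fell, 44.0%, was somewhat above that background, and the median difference was −15.4 points against −8.11 points over all genes. By complex, 11 of 16 tested ATP synthase genes, 8 of 13 complex IV genes, 14 of 36 complex I subunit genes, 2 of 7 assembly factors, 2 of 8 complex III genes and 0 of 4 complex II genes fell. The number of called members was 22 without WT day 1 control replicate 2. Without that library 7 ATP synthase and 5 complex IV genes were called, and without WT day 1 control replicate 1 or WT day 1 restricted replicate 2 complex I had 9. The 2 calls of assembly factors were both lost without WT day 1 control replicate 2 or WT day 1 restricted replicate 2, and 1 was without either of the other 2 day 1 libraries. Differences in share between complexes were not tested.

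The largest fall was in Cox7a1 (chr7:30184171-30186030), the muscle isoform of subunit 7a. It had 56.0% and 78.1% at day 1 control and 4.62% and 0% at day 1 restricted, a difference of −64.7 points (SE 8.66, limma adjusted p = 0.00085). Cox8a (chr19:7215158-7217616), the general isoform of subunit 8, had 56.2% and 61.7% against 0% and 13.7% (−52.1 points, SE 8.41, limma adjusted p = 0.00205). Both genes were nearly bare in the restricted libraries and mostly covered in the control ones. Cox7b (chrX:106015700-106022450) had 54.9% and 78.4% against 21.5% and 28.8% (−41.5 points, SE 8.46, limma adjusted p = 0.00615). In lists cut to equal covered length its difference was −47.0 points with a limma adjusted p of 0.102, within a range of 0.00399 to 0.102 over its alternatives.

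In complex I the largest falls were in Ndufs8 and Ndufv3. Ndufs8 (chr19:3908863-3912774), which holds iron-sulfur clusters on the electron path, had 74.1% and 73.5% against 40.8% and 15.1% (−45.8 points, SE 7.27, limma adjusted p = 0.00188). Ndufv3 (chr17:31520115-31531326), an accessory subunit of the NADH-oxidizing module, had 76.8% and 85.4% against 37.1% and 35.6% (−44.8 points, SE 4.21, limma adjusted p = 0.000166). The restricted libraries of Ndufs8 differed from each other far more than those of Ndufv3. With peaks up to 1 kb apart merged, the Ndufs8 difference was −34.4 points (limma adjusted p = 0.0825, range 0.000265 to 0.0825 over its alternatives).

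At day 5 restriction again lowered 37 of 84 tested members, and 4 rose, where limma called 41.4% of all tested genes lower and 4.26% higher (45.7% in either direction). The members' shares, 44.0% lower and 4.76% higher, were close to that background, and the median difference was −13.3 points against −9.24 points over all genes. The falls comprised 11 of 16 ATP synthase genes, 8 of 13 complex IV genes, 14 of 36 complex I subunit genes, 3 of 8 complex III genes, 1 of 7 assembly factors and 0 of 4 complex II genes. The rises were 3 assembly factors and 1 complex I subunit gene. Over both days, 24 members were called lower at both (28.6% of those tested, all genes 26.2%), 13 at day 1 and not at day 5 (15.5%, all genes 9.54%) and 13 at day 5 and not at day 1 (15.5%, all genes 15.2%). Another 30 were called at neither day (35.7%, all genes 43.3%). The number of called members was 18 without WT day 5 control replicate 1 and 26 without WT day 5 restricted replicate 1, with 6 and 9 complex I subunit genes among them.

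Cox7a1 showed the largest called fall at day 5 too, from 52.4% and 52.8% to 0% and 5.65% (−49.8 points, SE 8.66, limma adjusted p = 0.00236). Cox5b (chr1:36691487-36693388), the zinc-binding subunit, went from 53.2% and 41.4% to 0% in both restricted libraries (−47.3 points, SE 9.61, limma adjusted p = 0.005). Cox6c (chr15:35931976-35938246) had 80.8% and 69.0% in control and 30.9% and 26.9% in restricted medium (−46.0 points, SE 10.6, limma adjusted p = 0.00864). In these 3 complex IV genes the media did not overlap. Cox5b and Cox6c each have an annotated pseudogene, and in lists cut to equal covered length their differences were −26.6 points (limma adjusted p = 0.216, range 0.000789 to 0.216) and −16.6 points (limma adjusted p = 0.633, range 0.0022 to 0.633). Without WT day 5 control replicate 1 the Cox6c difference had a limma adjusted p of 0.0686.

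Cox8a had 55.6% and 55.8% against 27.6% and 0% (−41.9 points, SE 8.41, limma adjusted p = 0.00469), and with peaks up to 1 kb apart merged its limma adjusted p was 0.0797, the highest over its alternatives. Ndufa13 (chr8:69894163-69902558), a membrane-arm subunit of complex I also known for a role in cell death, had 47.7% and 51.9% against 14.4% and 3.19% (−41.0 points, SE 5.14, limma adjusted p = 0.000469). Ndufa13 was never marked in the day 0 or day 1 libraries. Cox6a1 (chr5:115345652-115348958) and Cox6b1 (chr7:30616971-30626114) fell at both days. Cox6a1 had 44.4% and 59.1% at day 1 control, 19.1% and 8.77% at day 1 restricted, 59.8% and 69.4% at day 5 control and 30.3% and 30.8% at day 5 restricted. Cox6b1 had 76.3% and 80.9%, 35.7% and 42.9%, 79.9% and 70.2%, and 37.1% and 47.1% in the same order.

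The differences of Cox6a1 were −37.8 points (SE 6.60, limma adjusted p = 0.00298) at day 1 and −34.1 points (SE 6.60, limma adjusted p = 0.00395) at day 5. For Cox6b1 they were −39.3 points (SE 5.12, limma adjusted p = 0.000741) and −33.0 points (SE 5.12, limma adjusted p = 0.00135). The effect did not pass the test for a difference between days in either gene. Cox6a1 and Cox6b1 kept their calls at both days under all 21 alternatives.

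**Figure D3:**
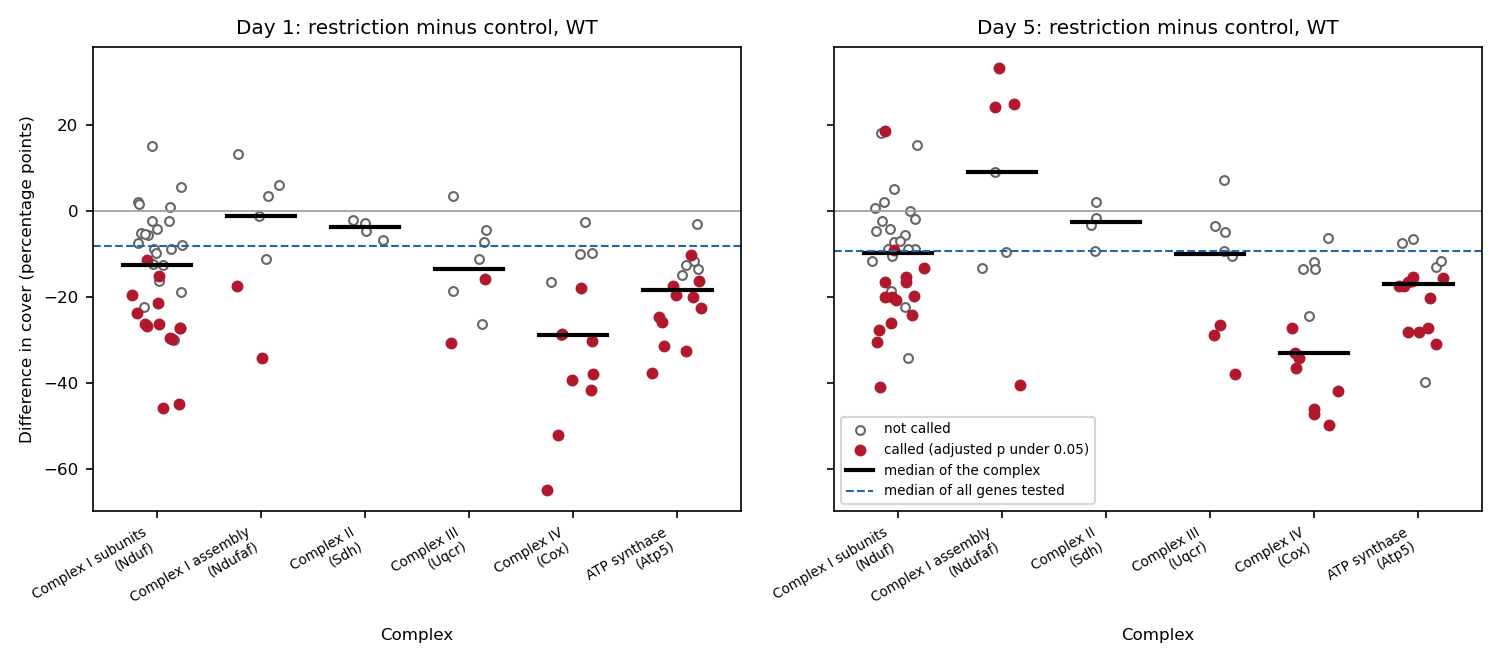
Difference in cover between restricted and control WT cells (percentage points, y axis) for each tested gene (points), by complex (x axis), at day 1 (left) and day 5 (right); filled points were called by limma, black bars are medians of a complex and the dashed line is the median of all genes tested. Complex IV lies lowest at both days with medians of −28.9 and −33.0 points, and 3 assembly factors are called above 0 at day 5.

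The 4 members that rose at day 5 were Ndufaf6, Ndufaf4, Ndufaf5 and Ndufa9. Ndufaf6 had 19.9% and 16.8% in control and 47.6% and 55.5% in restricted medium (33.2 points, SE 4.07, limma adjusted p = 0.000407), and its restricted day 5 libraries were near its day 0 libraries. Ndufaf4 had 13.9% and 21.6% against 40.3% and 44.6% (24.7 points, SE 6.34, limma adjusted p = 0.0140). Ndufaf5 (chr2:140170584-140218965), an enzyme that modifies a complex I subunit during assembly, had 17.8% and 20.9% against 41.6% and 45.4% (24.1 points, SE 6.05, limma adjusted p = 0.0127). In all 3 assembly factors the control day 5 libraries were the lowest of the 10 WT libraries.

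Ndufa9 (chr6:126821863-126849144), a subunit at the junction of the complex I arms, had 63.2% and 72.2% in control against 86.4% and 86.1% in restricted medium (18.6 points, SE 4.28, limma adjusted p = 0.0088). Unlike the assembly factors it was marked in all 10 WT libraries. The rises of Ndufaf4 and Ndufaf5 were 20.9 points (limma adjusted p = 0.0977) and 22.6 points (limma adjusted p = 0.0775) without WT day 5 control replicate 1, and 22.5 points (limma adjusted p = 0.0784) and 22.3 points (limma adjusted p = 0.0706) without WT day 5 restricted replicate 2. For Ndufa9 it was 14.04 points (limma adjusted p = 0.0672) without the same control library, and 4.10 points (limma adjusted p = 0.532) with peaks up to 1 kb apart merged. Over the alternatives the adjusted p ran from 0.00108 to 0.210 for Ndufaf4, from 0.000501 to 0.0775 for Ndufaf5 and from 0.000194 to 0.532 for Ndufa9, while Ndufaf6 kept its day 5 call under all 21.

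**Figure D4:**
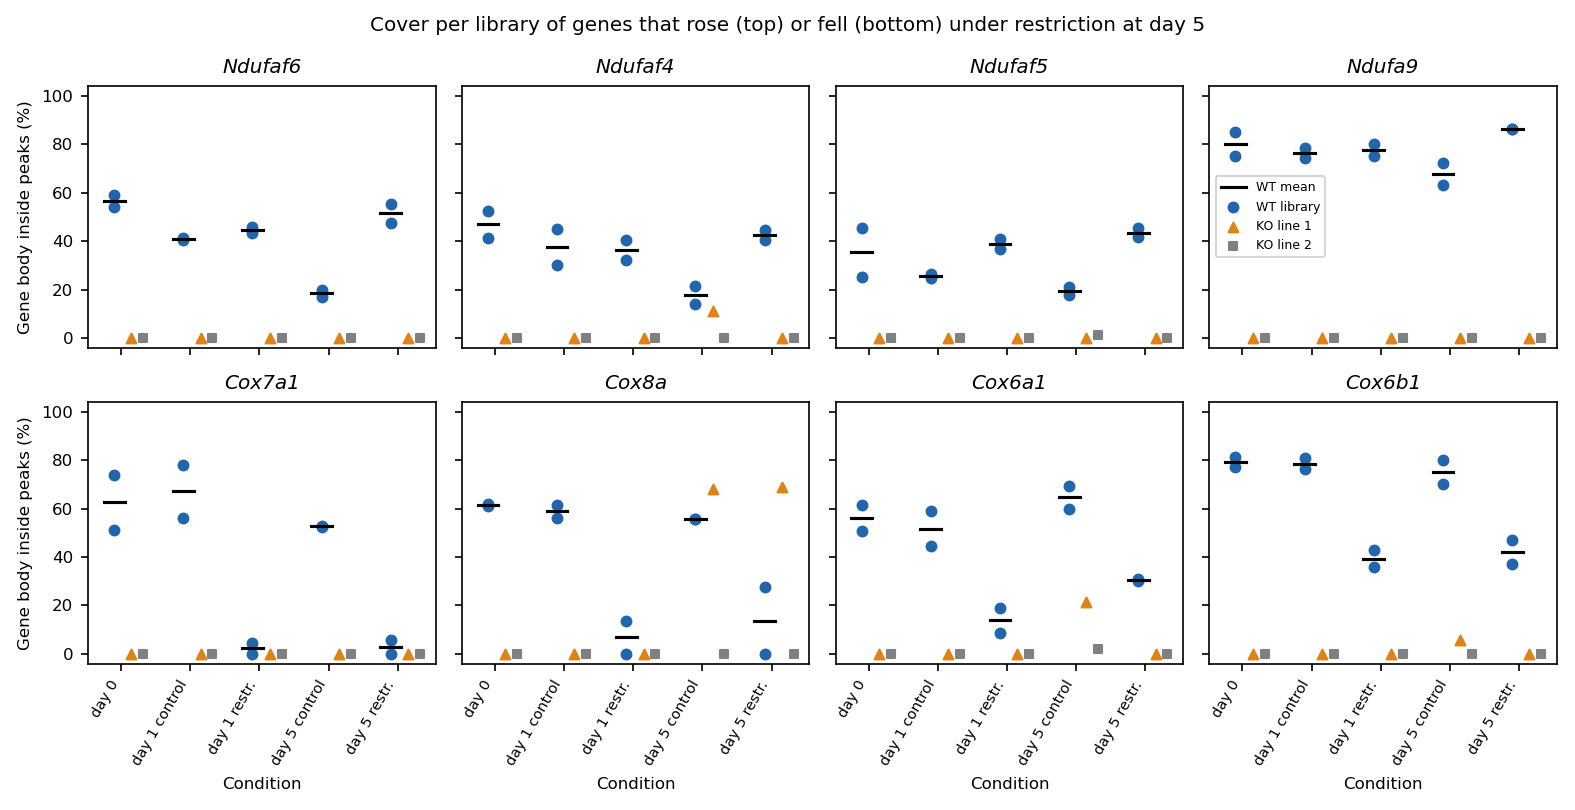
Cover (percent of gene body inside peaks, y axis) of 4 genes that rose (top row) and 4 that fell (bottom row) under restriction at day 5, by condition (x axis); circles are the 2 WT libraries, black bars their mean, triangles KO line 1 and squares KO line 2. Ndufaf6, Ndufaf4 and Ndufaf5 are lowest in WT at day 5 control, Cox7a1 is near 0 in the 4 restricted WT libraries, and Cox8a in KO line 1 stands at 67.9% and 69.0% at day 5.

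The other assembly factors did not all go this way. Ndufaf3, a partner of Ndufaf4, had 29.5% and 38.9% at day 1 control, 30.2% and 50.9% at day 5 control and 0% in all 4 restricted libraries, with differences of −34.2 points (SE 9.52, limma adjusted p = 0.0233) and −40.5 points (SE 9.52, limma adjusted p = 0.00954). The day 1 call of Ndufaf3 was lost after centring and without any 1 of the 4 WT day 1 libraries, and its day 5 call after centring and without WT day 5 control replicate 2. Ndufaf1 fell at day 1 by −17.4 points, a call lost in 6 of 21 alternatives, among them centring and the refits without WT day 1 control replicate 2 or WT day 1 restricted replicate 2, and Ndufaf7 was called at neither day. Only Ndufaf6 was called for a difference between the days in the effect of restriction, by 29.6 points (SE 5.76, limma adjusted p = 0.0244), where 5.11% of all tested genes were called in either direction (1.58% higher and 3.53% lower). That call was lost in lists cut to equal covered length (7.96 points, limma adjusted p = 0.713, range 0.00777 to 0.713), with stricter peaks (18.997 points, limma adjusted p = 0.286), and in each of 7 refits that left out 1 library: WT day 1 control replicate 1 or 2, WT day 1 restricted replicate 1 or 2, WT day 5 control replicate 1 or 2, or WT day 5 restricted replicate 2.

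The contrast of day 5 with day 0 and that of media at day 5 share the control day 5 libraries, so their values are given side by side only. The 6 markers of differentiating muscle (Myog, Mymk, Acta1, Myh3, Ckm and Tnnt3) moved with the medium as well. Their summed cover was 0 at day 0, 214 and 217 at day 1 control, 19.8 and 0 at day 1 restricted, 533 and 511 at day 5 control, and 120 and 145 at day 5 restricted, and limma called 6 of 6 lower at day 5 restricted and 5 of 6 at day 1 restricted. Myog, which starts muscle differentiation, was at 0 in all 4 restricted libraries. The summed cover of the 5 myoblast markers was 236 to 256 in the libraries of day 0 and control medium and 104.03 to 119 in the restricted ones. The part of cell state in the differences of the oxidative phosphorylation genes was not tested.

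Complex II was the complex with no called member at either day, although after centring 2 of its genes were called higher at day 1 and 3 at day 5. Sdha, the flavoprotein that oxidizes succinate (chr13:74322255-74350240), had 83.4% and 66.8% at day 0, 74.9% and 81.7% at day 1 control, 81.1% and 71.1% at day 1 restricted, 87.0% and 82.5% at day 5 control, and 82.6% and 80.5% at day 5 restricted. Sdhb, the iron-sulfur subunit (chr4:140961271-140979198), had 74.5% and 79.0%, 78.5% and 72.5%, 74.1% and 63.4%, 78.2% and 85.3%, and 74.9% and 69.9% in the same order. These 2 genes were marked in every WT library. Of the membrane anchors, Sdhc (chr1:171129157-171150640) had 78.7% and 72.8%, 68.0% and 69.5%, 68.7% and 63.3%, 79.7% and 84.8%, and 79.7% and 81.3%. Sdhd (chr9:50596340-50603849) had 60.4% and 63.4%, 58.4% and 54.8%, 46.3% and 57.6%, 56.7% and 56.6%, and 58.5% and 59.0%. The differences under restriction were −6.75 points (SE 4.53) to −2.17 points (SE 5.65) at day 1 and −9.38 points (SE 4.53) to 2.07 points (SE 4.36) at day 5, with limma adjusted p from 0.128 to 0.797. All 4 genes are longer than 5 kb, and 2 are longer than 20 kb.

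In complex III the large core proteins and the small subunits differed in value. Uqcrc1 and Uqcrc2, the core proteins, had 62.0% to 90.3% over the 10 WT libraries and were called at neither day. Uqcr11, a small subunit, fell at both days, by −30.6 points (SE 9.38, limma adjusted p = 0.0338) and −37.9 points (SE 9.38, limma adjusted p = 0.0121). The day 1 call of Uqcr11 was lost in 11 of 21 alternatives, among them centring, no filter on cover and the refits without WT day 1 control replicate 2, WT day 1 restricted replicate 1 or any 1 of the 4 WT day 5 libraries. Its day 5 call was lost in 4, including those without WT day 5 control replicate 1 or WT day 5 restricted replicate 1. Uqcrh was called at day 1, and Uqcr10 and Uqcrq at day 5, while no complex III gene was called for a difference between days. These calls were lost in 6, 5 and 3 of 21 alternatives, centring among them in each case. The Uqcrh call was lost without WT day 1 control replicate 2, WT day 1 restricted replicate 1 or WT day 1 restricted replicate 2, that of Uqcr10 without WT day 5 control replicate 1 or 2 or WT day 5 restricted replicate 1, and that of Uqcrq without WT day 5 control replicate 1 or WT day 5 restricted replicate 1. Uqcrfs1, the Rieske iron-sulfur protein, had 20.1% to 27.7% in the 10 WT libraries. Without WT day 1 control replicate 2 no complex III gene was called at day 1, and without WT day 1 restricted replicate 2 or either WT day 5 control library 1 was; without WT day 5 control replicate 1 or WT day 5 restricted replicate 1 none was at day 5.

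In ATP synthase, Atp5h and Atp5j, both of the peripheral stalk, fell at both days. Atp5h fell by −37.6 points (SE 7.03, limma adjusted p = 0.00413) at day 1 and by −30.9 points (SE 7.03, limma adjusted p = 0.00822) at day 5. Both genes kept the day 1 call under all 21 alternatives and lost the day 5 call after centring and without WT day 5 control replicate 1. The day 5 call of Atp5h was also lost in lists of equal covered length and with peaks up to 1 kb apart merged, and that of Atp5j without WT day 5 restricted replicate 2. Atp5a1, the alpha subunit, had 81.7% and 85.5% at day 1 control and 66.0% and 61.3% at day 1 restricted, then 82.1% and 83.1% and 65.6% and 66.8% at day 5. Atp5g2, a c subunit gene, had 79.4% and 85.5% against 71.2% and 58.8% at day 1, and 86.6% and 84.8% against 68.6% and 71.9% at day 5. The Atp5g2 calls were lost after centring at both days, at day 1 also with only the libraries compared and without WT day 1 control replicate 2, and at day 5 without WT day 5 control replicate 1 or 2 or WT day 5 restricted replicate 1. Atp5a1 and Atp5g2 stayed marked in the restricted libraries, whereas Atp5h had 11.3% and 33.9% at day 1 and 38.8% and 35.02% at day 5 there. Without WT day 1 control replicate 2, 7 ATP synthase genes were called at day 1. Without WT day 5 control replicate 1, WT day 5 restricted replicate 1 or WT day 5 restricted replicate 2, 3, 5 and 7 were called at day 5.

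Gene length went with the size of the fall. At day 1, 13 of 23 tested members under 5 kb fell (56.5%, all genes of that length 59.01%), with a median of −26.7 points, against −26.3 points for all 1071 tested genes of that length. Of the 49 members between 5 and 20 kb, 23 fell (46.9%, all genes 43.8%; median −16.4 points, all genes −11.7 points), and of the 12 members longer than 20 kb, 1 fell (8.33%, all genes 25.7%; median −2.54 points, all genes −4.36 points). At day 5 the medians over members were −26.2, −11.7 and −1.76 points from the shortest to the longest class, and −20.6, −9.65 and −7.60 points over all genes. Spearman's rho of length with the difference was 0.42 over the 84 members and 0.41 over all 9681 genes at day 1, and 0.48 and 0.16 at day 5, given as a description across genes, which share libraries. At day 1, 9 of 11 ATP synthase genes between 5 and 20 kb fell (81.8%), and 5 of 6 complex IV genes under 5 kb did (83.3%). Other classes of the same complexes were not above all genes of their length. Under 5 kb, 1 of 4 ATP synthase genes fell (25%, all genes 59.01%). Between 5 and 20 kb, 3 of 7 complex IV genes did (42.9%, all genes 43.8%). The 1 tested ATP synthase gene over 20 kb fell too. The part of length in the members' differences was not tested.

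**Figure D5:**
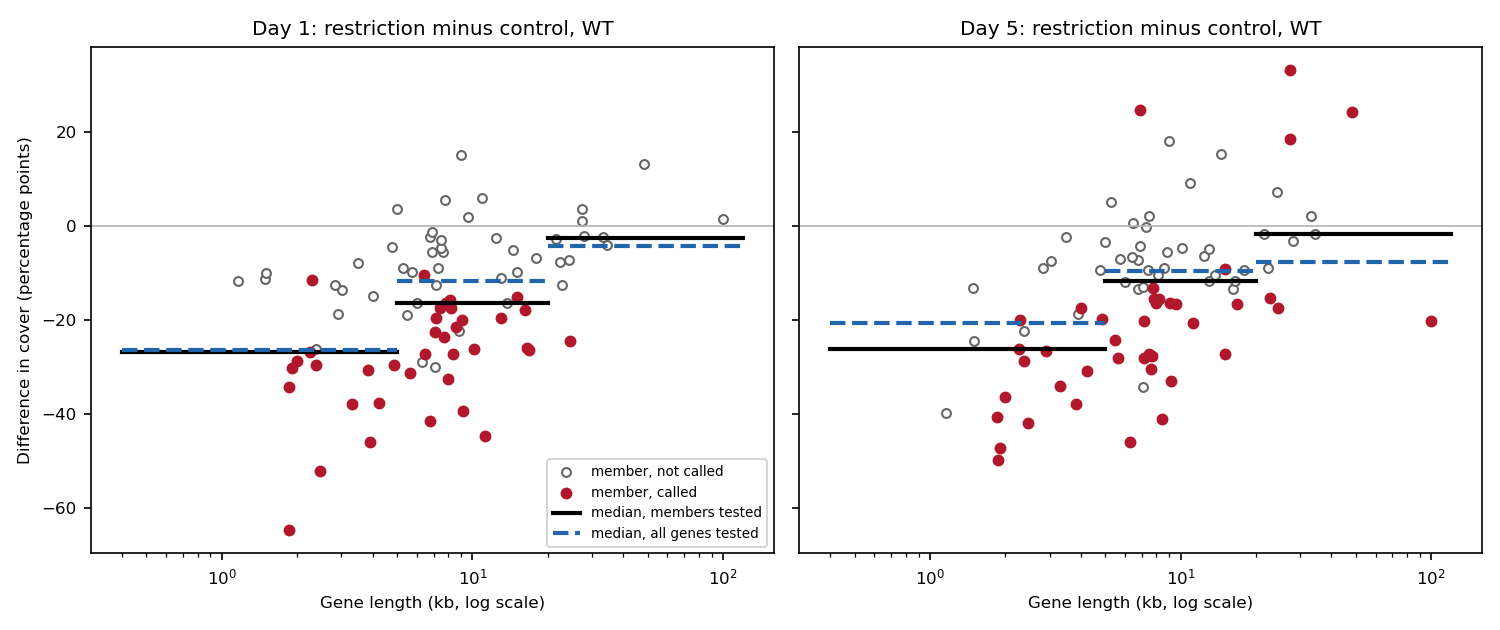
Difference in cover between restricted and control WT cells (percentage points, y axis) against gene length (kb, log axis) for the 84 tested genes at day 1 (left) and day 5 (right); filled points were called, and lines are class medians of members (solid) and of all genes tested (dashed) under 5 kb, from 5 to 20 kb and over 20 kb. Short genes lie lowest at both days, and the called rises over 20 kb at day 5 are Ndufaf6, Ndufaf5 and Ndufa9.

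The direction of these counts depends on how libraries are scaled. After the median over tested genes was subtracted from each library (centring), the median difference of all genes turned from −8.11 to 7.38 points at day 1 and from −9.24 to 7.70 points at day 5. Then 13 members passed as higher and 13 as lower for day 1, which is 15.5% each, where 37.2% and 13.04% of all genes did. For day 5 the members were 21 higher and 8 lower (25% and 9.52%), where all genes had 39.4% and 14.4%. Complex IV stayed lower, with 5 genes lower at day 1, 7 lower at day 5, 0 higher at both, and medians of −13.4 and −16.0 points. Complex I subunits turned to 7 higher against 5 lower at day 1, and to 11 against 1 at day 5, complex II to 2 and 3 higher, complex III to 1 and 2 higher, and the assembly factors to 3 and 4 higher. ATP synthase had 3 genes lower at day 1 and 1 higher at day 5. In lists cut to equal covered length by the authors' fold enrichment, 2 members were higher and 23 lower at day 1 (2.53% and 29.1%, all genes 8.07% and 19.8%). At day 5 the counts were 6 and 20 (7.59% and 25.3%, all genes 15.2% and 20.4%). The named falls of Cox7a1 and Cox8a and the rise of Ndufaf6 under restriction kept their direction under both scalings.

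Other genes of the pathway were counted from fixed lists, beside 35.8% of all tested genes lower at day 1 and 41.4% at day 5. Of the complex IV assembly factors, 8 of 18 tested fell at day 1, and at day 5 7 fell and 1, Cox10, rose by 5.57 points. Surf1, whose loss in humans causes Leigh syndrome, had 50.6% and 55.3% at day 1 control and 0% and 11.8% at day 1 restricted, and Cox20 went from 56.7% and 69.1% to 0% in both. Of the complex III list, which includes cytochrome c (Cycs) and cytochrome c1 (Cyc1), 5 of 6 fell at day 1 and 4 of 6 at day 5, Cyc1 by −41.0 and −33.4 points. Of the complex I assembly genes outside the Ndufaf series, 1 of 6 fell at each day, and Acad9 rose at day 5.

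Acad9, a flavoprotein of complex I assembly, was lowest at day 5 control, like Ndufaf6. It had 74.4% and 71.7% at day 0, 55.6% and 53.1% at day 5 control and 77.2% and 77.1% at day 5 restricted, and was called lower from day 0 to day 5 (−18.7 points) and higher under restriction (22.8 points). Of the complex II assembly genes 2 of 2 tested fell at day 1 and 1 of 2 at day 5, and of the ATP synthase assembly genes 0 of 4 and 2 of 4 did. Among 10 tested regulators of mitochondrial biogenesis, 3 fell at each day, namely Ppargc1b, Esrra and Yy1, while Nrf1, Gabpa and Tfam were tested and not called and Ppargc1a was below the minimum. Of 12 tested genes of the citric acid cycle, 4 fell at day 1 and 5 at day 5, and Fh1, fumarase, rose at day 5 by 16.1 points. The shares of regulators (3 of 10) and of citric acid cycle genes (4 and 5 of 12) were thus near or below those of all genes.

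The KO lines had little cover on these genes. The mean cover over the 10 WT libraries exceeded that over the 10 KO libraries in 80 of 82 tested members at a BH-adjusted p under 0.05 (exact permutation test within condition, two-sided), and 0 were higher in KO; 96.3% of all 9023 tested genes were called lower. The median difference was 48.3 points over members and 42.0 points over all genes, and the smallest adjusted p among members was 0.000339, from the smallest p that the permutations can give, 0.000257. Both KO libraries lay below both WT libraries for 84 members at day 0 (46.8% of all genes), 82 at day 1 control (45.7%), 72 at day 1 restricted (42.9%), 72 at day 5 control (42.5%) and 73 at day 5 restricted (38.6%). A gene at 0 in a WT library cannot meet this rule. At day 0 that held for 11346 and 11214 of all 21887 genes, and for 11 and 10 of the 96 members. The member counts and these shares are thus not on a like base. Genes entered this test by their average over all 20 libraries, an average made up mostly of WT cover. The choice of genes thus favoured a lower call in KO, and the count of 80 of 82 is partly set by it. The 5 KO libraries of a line share that line across conditions, so the p-values, which treat them as independent, do not measure the spread between lines. The members not called were Cox8a (exact permutation p = 0.0525, 25.7 points) and Atp5k (exact permutation p = 0.417, 9.12 points). With libraries centred on their medians, 26 members were lower and 26 higher in KO. The share of all genes under centring is not given here, so these counts show nothing particular to the members. Over the 9681 genes tested in WT, the library medians were 27.95% to 57.03% in WT. In KO libraries they were 0, except for 8.08% in line 1 at day 5 control. Centring thus lowers WT values and leaves most KO libraries nearly unchanged.

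KO line 1 was not uniform over conditions. It had cover on 30 members at day 0, 23 at day 1 control, 3 at day 1 restricted, 59 at day 5 control and 30 at day 5 restricted, and it marked 2, 2, 0, 19 and 4 of them, where it marked 0.955%, 0.772%, 0.00457%, 7.55% and 3.04% of all genes. Among tested genes, 34.5%, 26.2%, 2.38%, 69.05% and 34.5% of the members had cover in these libraries, where 46.2%, 35.1%, 2.39%, 70.96% and 49.1% of all genes did. Of tested genes, in the same order, the line marked 2.38%, 2.38%, 0%, 22.6% and 4.76% of the members. It marked 2.11%, 1.63%, 0%, 16.7% and 6.48% of all tested genes. Its restricted day 1 list had only 791 peaks in all. The mean over the 17 ATP synthase genes was 14.98% at day 0, when 8 had cover and the median was 0, and 44.8% (median 51.7%) at day 5 control, where all tested genes had means of 5.80% and 20.9% and medians of 0 and 8.08%. The complex II and complex III medians were 5.04% and 4.21% at day 0 and 27.03% and 33.8% at day 5 control, while the 18 complex IV genes were listed at 0 at day 0 and had a mean of 16.6% at day 5 control, the 5 genes below the minimum for testing included. The 5 members with the highest mean over the 10 KO libraries were Atp5b, Atp5a1, Atp5g2, Atp5pb and Cox8a.

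Atp5b in KO line 1 had 73.5% at day 0, 74.0% at day 1 control, 0% at day 1 restricted, 96.3% at day 5 control and 77.3% at day 5 restricted. Atp5a1 had 57.9%, 57.0%, 2.54%, 85.3% and 65.0% in the same order, Atp5g2 had 43.0%, 42.4%, 0%, 93.2% and 64.5%, and Atp5pb, the b subunit of the stalk, had 18.6%, 32.7%, 0%, 77.7% and 19.6%. At day 5 control, the values of Atp5b, Atp5a1 and Atp5g2 were above both WT libraries. At that condition 11 members in KO line 1 reached or passed the lower WT library (4.62% of all genes did), namely Atp5a1, Atp5b, Atp5g2, Atp5g3, Cox7c, Cox8a, Ndufa4, Ndufaf2, Ndufb7, Ndufb9 and Uqcr11, and at day 5 restricted 4 did (5.05% of all genes), namely Atp5b, Atp5d, Atp5g3 and Ndufa13. The count was 0 at day 0 (0.329% of all genes), 1 at day 1 control (Ndufaf2, 0.448% of all genes) and 0 at day 1 restricted (0.0137% of all genes). A line and condition had 1 library, so these comparisons have no replicate check. The shares of all genes are over 21887 genes, and a gene at 0 in a WT library could not qualify. At day 5 control 11196 and 11311 genes were at 0 in the WT libraries, against 10 and 12 of the 96 members. The member counts and these shares are thus not on a like base.

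Cox8a was bare in KO line 1 at day 0 and day 1 and had 67.9% at day 5 control and 69.0% at day 5 restricted, against 55.6% and 55.8%, and 27.6% and 0%, in WT. Cox7a1, the muscle isoform, was at 0 in all 10 KO libraries. Ndufaf6 and Ndufa9 were at 0 in all 10 too, and Ndufaf4 had 11.1% in KO line 1 at day 5 control only. KO line 2 had 83 members at 0 in all 5 libraries, which among tested genes is 85.7% of members and 84.3% of all. In its day 5 control library 8 members exceeded 1% cover (9.52% of those tested, all genes 6.48%), led by Atp5k with 23.9%, Ndufaf8 with 18.5% and Uqcr11 with 5.57%.

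The promoters of 78 members, 250 bases before to 50 after the gene start, were in the RefSeq table of build GRCm38.p6. In the 10 WT libraries 0 to 2 of 71 tested members had a peak touching that window, against 2.24% to 6.01% of all tested genes, so peaks on these members lay mostly downstream of the promoter. The motifs of factors known for nuclear mitochondrial genes were searched by their letters on both strands. The NRF1 motif, its own reverse complement and searched as the capitals in the sequences that follow, was in 7 members (8.97%) and in 1.47% of all 17492 promoters; the 7 were Atp5g2, Atp5k, Cox6a1, Ndufa11, Ndufaf4, Ndufaf5 and Uqcrc1. YY1, written AAGATGGC, was in 11 members (14.1%, all genes 3.57%), and the ETS motif, written CCGGAAGT, in 5 (6.41%, all genes 5.69%).

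Promoters with the NRF1 letters belonged to members of unlike behaviour, and the 250 bases upstream of 3 of them are shown for that reason, 5′ to 3′ on the strand of the gene, with the motif in capitals. Ndufaf4 rose under restriction at day 5 (window chr4:24897833-24898082, plus strand, motif from position −113 relative to the gene start). Cox6a1 fell at both days (chr5:115348959-115349208, minus strand, position −162), and Atp5g2 fell at both days and had cover in 4 of 5 libraries of KO line 1 (chr15:102671048-102671297, minus strand, position −42). A match of letters is a description and not a site of binding.
Ndufaf4: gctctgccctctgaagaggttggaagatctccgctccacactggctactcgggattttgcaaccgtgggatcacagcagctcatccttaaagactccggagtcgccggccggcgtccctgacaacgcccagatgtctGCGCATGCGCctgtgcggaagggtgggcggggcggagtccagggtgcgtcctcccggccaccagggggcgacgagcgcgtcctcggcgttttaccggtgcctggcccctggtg
Cox6a1: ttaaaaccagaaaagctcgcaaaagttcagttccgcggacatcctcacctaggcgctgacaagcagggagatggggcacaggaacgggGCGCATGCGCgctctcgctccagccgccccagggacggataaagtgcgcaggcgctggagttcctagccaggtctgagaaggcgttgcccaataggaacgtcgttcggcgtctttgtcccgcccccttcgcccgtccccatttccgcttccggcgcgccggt
Atp5g2: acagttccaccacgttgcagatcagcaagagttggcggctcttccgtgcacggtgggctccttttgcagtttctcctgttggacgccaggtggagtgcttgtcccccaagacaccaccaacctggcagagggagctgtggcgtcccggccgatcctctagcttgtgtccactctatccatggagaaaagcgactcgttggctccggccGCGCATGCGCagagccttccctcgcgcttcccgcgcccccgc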

How the data were processed

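The deposited files were 20 broad-peak lists, 1 per library. The fold (a ratio), the −log10 p, the −log10 q and the score of each peak are the authors', deposited with the peaks. The lowest −log10 q was 1.00. The build GRCm38 is named in the submitters' processing notes. The peak caller, its control, read filters and depth are not given in the sources used here. Per the labels' protocols a Drosophila spike-in was added, which was not used for scaling here. The input was not used here.

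Peaks of a library were merged where they overlapped or touched. Cover is the percent of a RefSeq gene body (GRCm38.p6) inside merged peaks, with no length minimum, since 12 members are under 2 kb. Where genes overlap, a peak adds to both, and 7 members overlap another coding gene over at least 10%. limma 3.58.1 (lmFit, eBayes with trend and robust) was fitted to the 10 WT libraries as 5 groups sharing 1 spread, for 9681 genes (mean cover 5% or more), with Benjamini-Hochberg adjustment over all of them and calls under 0.05. KO and WT were compared by an exact permutation test per gene within condition, for genes with a mean of at least 5% over 20 libraries. Values with SE are differences in points. Tested on simulated data with 9681 genes, of which 200 were changed by 30 points, the fit recovered 75.5% at day 1 and 70.5% at day 5 for the medium and 19% for the difference between days. The simulated group means held no sampling error, so false calls could not arise there. The recovered shares therefore do not measure the power of real groups of 2 libraries. Alternatives changed the filter, peaks, scaling, merging, gene body, moderation, libraries fitted and replicates; counts by complex under them were added after the data were seen.

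Genes with values in every library are up to 5 per direction and contrast with the largest called difference, the Sdh genes, fixed isoform pairs, the extremes of cover in WT and KO, and the longest and shortest member. Others named (such as Ndufaf3, Uqcr11 and Atp5h) were chosen after their values were seen. The members and lists were chosen with earlier results of these data known. Python 3.11.15 and R 4.3.3 were used.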

Additional observations from a re-analysis of the deposited data

Results flagged for a closer look

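Ndufaf6 was picked out because the effect of restriction on its cover differed between the days by a test of that difference: the effect at day 5 minus that at day 1 was 29.6 points (limma adjusted p = 0.0244). WT and KO line 1 differed in sign of the restriction effect at day 5 in 2 members called in WT, and this difference was not tested, since KO line 1 has 1 library per condition. Ndufaf4 changed by −11.1 points in KO line 1, where WT rose by 24.7 points. Cox8a changed by 1.10 points in KO line 1, where the WT difference was −41.9 points. No group had enough libraries for a search for single outlying samples.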

How the results depend on the processing

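Each count of called members was recomputed under 11 alternatives and 10 refits that left out a library (8 and 20 for KO against WT). Counts within 1.5 times the main one are not listed, and some named genes have no value under stricter filters. Restriction at day 5 gave 26 members in lists cut to equal covered length. Day 1 against day 0 gave 1 member with genes of at least 2 kb, 5 with a −log10 q of at least 3, 1 with centred libraries, 1 with peaks up to 1 kb apart merged, 1 with bases free of other genes and 1 with plain eBayes. With the stricter peaks 1.22% of members were higher and 4.88% lower, where 0.517% and 9.36% of all genes were. When centred these shares were 1.19% and 0% of members, and 2.38% and 1.22% of all genes. Day 5 against day 0 gave 4 at a mean cover of at least 20% and 2 with only the libraries compared. Shares of all genes are not given here for those settings. The difference between days gave 6 with a −log10 q of at least 3 (7.32% higher and 0% lower, all genes 3.86% and 2.65%). It gave 5 in lists of equal covered length (6.33% and 0%, all genes 4.16% and 2.93%). When centred it gave 4 (3.57% and 1.19%, all genes 2.42% and 3.51%). KO against WT gave 26 lower and 26 higher when centred, and the share of all genes under that setting is not given here. Leaving out 1 library gave 22 to 39 (day 1 medium), 18 to 45 (day 5 medium), 0 to 2 (day 1 against day 0), 3 to 11 (day 5 against day 0), 0 to 2 (difference between days) and 79 to 81 (KO). Of 22 named gene results over 21 alternatives, 388 of 455 values kept call and direction, 67 lost the call and 0 reversed; 6 results kept both throughout. Lost calls were most frequent in lists of equal covered length (10 of 21) and without WT day 5 control replicate 1 (10 of 22); the cause was not tested. With the replicate number as a block, counts were 36, 41, 0, 8 and 1 in the order of day 1 medium, day 5 medium, day 1, day 5 and difference between days, and no named call was lost; the pairing is only of numbers, since replicate differences correlated by −0.427 to 0.0574 between conditions. Without depth, a peak that is missing cannot be told from one that was too shallow to call.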
